A study of Mus musculus with 18 samples.

Results

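The EGR and NR4A immediate early factors described here are 7 genes, the zinc finger transcription factors Egr1, Egr2 and Egr3, their corepressor Nab2, and the orphan nuclear receptors Nr4a1, Nr4a2 and Nr4a3. All probes that carry one of these gene symbols were taken, which gave 10 probes for the 7 genes, among 19057 genes with a probe of a single symbol. Of the 7 genes, 6 had a probe that could be tested, among 8985 genes tested in all.

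The members were measured by Illumina bead array in cultured mast cells of female mice, at 5 weeks, either wild type for Dnmt3a or Dnmt3a knockout. Dnmt3a is an enzyme that places new DNA methylation. Cells of each genotype were untreated or had been stimulated with IgE and antigen for 4 h or 24 h, and no other agent or allele is named in the labels. Each of the 6 groups held 3 arrays, 1 from each of cultures 6, 8 and 9 in wild type and 3, 4 and 6 in knockout, and each culture gave 1 array per condition. The labels give neither the type of knockout allele nor any promoter that limits it to a cell type, and they name the numbered mouse for some arrays only.

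Immediate early genes are transcribed within minutes of a stimulus from factors that are already present in the cell, and their mRNAs are usually short-lived. EGR proteins bind GC-rich DNA sites, and Nab2, which they induce in several cell types, binds Egr1, Egr2 and Egr3 and represses their activity, a negative feedback loop. NR4A receptors act without a known physiological ligand, so that the amount of protein made sets much of their activity. In mast cells, crosslinking of IgE on its receptor raises calcium and activates MAP kinases and NFAT, the signals that drive both families.

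Cultures of the 2 genotypes shared slides. Wild-type cultures 6, 8 and 9 lay on slides 1, 2 and 3, together with knockout cultures 3, 4 and 6 in that order. On every slide the wild-type arrays were in positions A to C and the knockout arrays in D to F, so that position and genotype cannot be told apart. Untreated arrays were in position A or D on every slide, and stimulated arrays in the other positions. Position thus cannot be told apart from stimulation in a comparison with untreated cells either, and blocking by slide or culture does not change that. An array's detection limit was set from the signals of olfactory and vomeronasal receptor probes, and it ran from 107 to 222 units of intensity. Between 28.7% and 33.8% of an array's probes lay above it. Of 12 mast cell markers, 12 were kept as detected and 10 were above the limit on all 18 arrays, and 0 of 12 passed the test in any comparison between conditions or genotypes. All 6 measured T and NK cell markers and all 3 B cell markers were above the limit on 0 arrays, as were 4 of 5 fibroblast markers. Of 5 dendritic cell markers 1 was kept (Siglech, above the limit on all 18 arrays). Of 4 erythroid markers 3 were kept (Epor, Hba-a1 and Klf1), and of 7 neutrophil markers 1 (Elane). Of 11 macrophage and monocyte markers, 4 were kept (Adgre1, Cx3cr1, Lyz1 and Lyz2) and 4 were above the limit on 0 arrays (Itgam, Ly6c1, Mrc1 and Msr1). The 4 kept ones summed to 1622 to 2191 units in untreated wild-type cells, 857 to 1010 at 4 h and 718 to 1069 at 24 h. In knockout cells the sums were 1842 to 2300, 939 to 1741 and 1186 to 1369. Of these 4 macrophage and monocyte markers, 0 passed the test in any comparison. All 3 basophil markers were kept (Cd200r3, Mcpt8 and Prss34), and their sums were 9527 to 11740 units untreated, 6387 to 8296 at 4 h and 5849 to 8344 at 24 h in wild type. In knockout they were 8391 to 11170, 6429 to 6835 and 5869 to 7943. Of these 3, only Cd200r3 passed the test within a genotype, lower at 24 h in wild type (adjusted p = 0.0381). The part of any of these sets in the results below was not tested. All 3 Dnmt3a probes were above the limit on 0 of 18 arrays, at 51.0% to 87.1% of it, so the targeted gene could not check the genotype labels. In bulk RNA, fewer cells that express a gene and less RNA per cell cannot be told apart.

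The 10 probes divided into bright, dim and undetected ones. Egr1 was above the limit on 18 of 18 arrays, at 26 to 103 times the limit. The tested probes of Egr2 and Egr3 were each above it on 17 arrays, that of Nab2 on 15, that of Nr4a2 on 9 and one Nr4a3 probe on 5. The single Nr4a1 probe was above the limit on 0 arrays, with signals of 82.8 to 129 units, or 53.6% to 81.0% of the limit. Nr4a1 therefore has no measured level or change in these data. A second Egr3 probe and the other 2 Nr4a3 probes were also above the limit on 0 arrays. The Nr4a3 probe that was kept passed the filter only through 4 h arrays, so that its being tested at all rests on its 4 h signals.

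**Figure D1:**
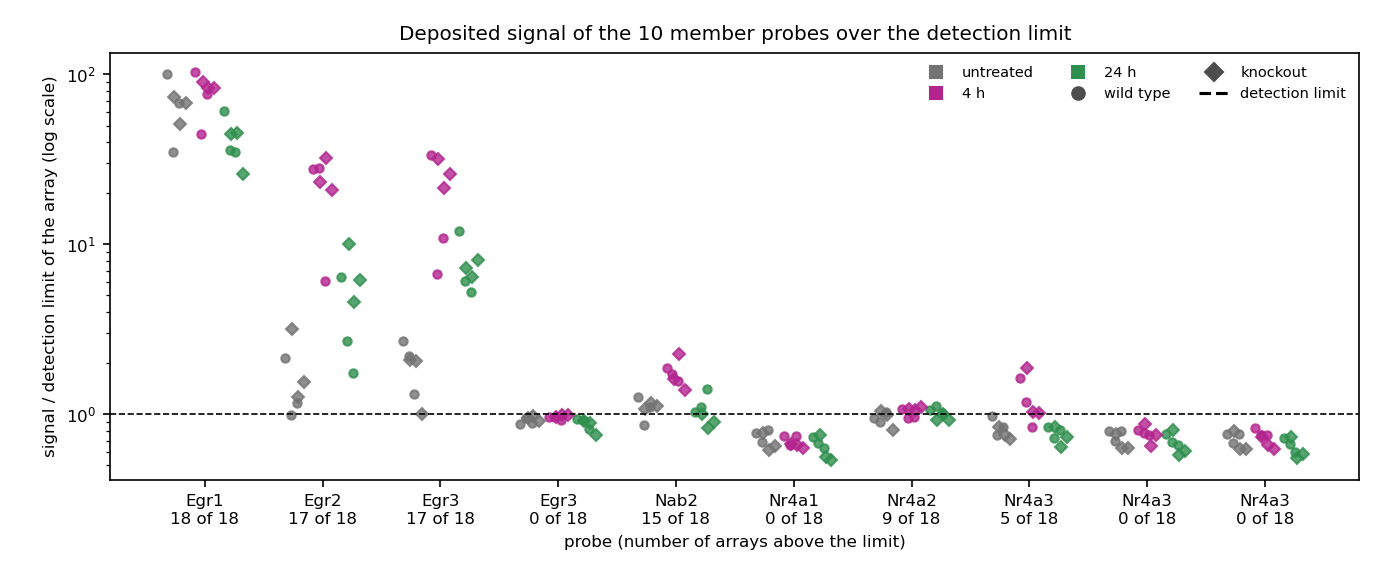
Deposited signal of each of the 10 member probes divided by the detection limit of its array, on a log axis, for 18 arrays coloured by condition, with circles for wild type and diamonds for knockout. Egr1 stays at 26 times the limit or more, the first Egr2 and Egr3 probes move away from the limit at 4 h, and the Nr4a1 probe stays under the dashed line.

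Across all members, the 4 h response was one of Egr2 and Egr3 in both genotypes, with Nab2 called in wild type only. Egr1 was already bright in untreated cells. After 4 h in wild type, Egr2, Egr3 and Nab2 rose, and Egr1, Nr4a2 and Nr4a3 were not past the threshold, an adjusted p of 0.05 in limma over all genes. Of all 8985 genes, 1.83% passed in this comparison and 0.89% were higher. In knockout cells Egr2 and Egr3 rose and the other 4 tested members were not past the threshold, where 0.812% of all genes passed and 0.634% were higher. Of the tested members, 3 in wild type and 5 in knockout had 4 h values wholly above the untreated ones, against 9.36% and 9.27% of all genes. The median log2 change of the 6 tested members was 0.83 in wild type and 0.98 in knockout, against −0.04 and −0.02 over all genes. Nr4a3, kept through its 4 h arrays, is in both medians and among the 5, so these are descriptions only. Without it, 4 of the other 5 tested members lay wholly higher in knockout.

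Egr1 was high before stimulation and stayed there at 4 h. Its log2 intensity was 13.71, 12.45 and 13.39 in untreated wild-type cultures 6, 8 and 9, and 13.49, 12.81 and 13.54 in untreated knockout cultures 3, 4 and 6. At 4 h it was 13.70, 12.49 and 13.57 in wild type and 13.63, 13.41 and 13.81 in knockout. The untreated and 4 h values overlapped in both genotypes, and culture 8 was the lowest wild-type culture in each condition. The 4 h change was 0.07 ± 0.37 (SE from limma, as for each change below) in wild type (adjusted p = 0.940) and 0.33 ± 0.37 in knockout (adjusted p = 0.692). The wild-type 95% interval of −0.72 to 0.86 covers a change of up to 1.81-fold upwards. Egr1 signals were 14.1% to 60.2% of the highest signal on the same array, so that they lay below the array's brightest probes.

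At 24 h, Egr1 gave its lowest values in each of the 6 cultures. These were 13.01, 12.20 and 12.36 in wild type and 12.70, 12.71 and 11.85 in knockout. In wild type they overlapped the untreated values, and in knockout all 3 lay below them. Against untreated the change was −0.66 ± 0.37 in wild type (adjusted p = 0.412) and −0.86 ± 0.37 in knockout (adjusted p = 0.315), neither past the threshold. Within cultures the changes ran from −0.25 to −1.03 in wild type and from −0.10 to −1.69 in knockout. Knockout culture 6 gave the largest of them, and knockout culture 4 the smallest. From 4 h to 24 h the change in knockout was −1.19 ± 0.37 (adjusted p = 0.132), and passed once slides or cultures were blocked (adjusted p = 0.0266 by slide and 0.0244 by replicate). Within a genotype the replicate block removes each culture's own level, and with it that of its slide. The wild-type change was −0.73 ± 0.37 (adjusted p = 0.235) and missed the threshold with either block.

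Egr2, a factor with roles in hindbrain and Schwann cell development and a brake on T cell activation, moved from near the limit to a bright signal. Its log2 intensity was 8.15, 6.78 and 7.03 in untreated wild-type cultures 6, 8 and 9, of which culture 8 was just below the limit. At 4 h it was 11.87, 11.79 and 9.82. At 24 h it was 9.76, 8.25 and 7.67. All 4 h values lay above all other wild-type values of the gene, and the 24 h values overlapped the untreated ones. In the deposited units the 4 h signals were 3568, 4106 and 867, against 239, 140 and 133 before stimulation. Knockout cultures 3, 4 and 6 gave 9.02, 7.12 and 7.62 untreated, 11.84, 11.86 and 11.68 at 4 h, and 10.61, 9.27 and 9.77 at 24 h. There the 3 conditions did not overlap.

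The 4 h rise of Egr2 was 14.4-fold in wild type (log2 3.84 ± 0.63, adjusted p = 0.00818), with a 95% interval of 5.72-fold to 36.1-fold. In knockout it was 14.6-fold (log2 3.87 ± 0.63, adjusted p = 0.00638, interval 5.83-fold to 36.8-fold). Within cultures the log2 rises were 3.72, 5.02 and 2.79 in wild type and 2.81, 4.75 and 4.06 in knockout. Wild-type culture 9, with the lowest 4 h level, had the smallest rise, and both cultures of slide 2 had the largest rise of their genotype. The adjusted p of the wild-type rise was 0.403 without culture 8, where 1 gene of all tested was called, and the rise was then 3.26. In knockout it was 0.169 without culture 4 and 0.0857 without culture 6.

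By 24 h Egr2 had fallen from its 4 h level in wild type by 2.60 on the log2 scale (± 0.63, adjusted p = 0.0306). That call was lost without any 1 of wild-type cultures 6 and 8 (adjusted p = 0.0928 and 0.387) or knockout cultures 4 and 6 (0.0521 and 0.0532), with median scaling (0.0507) and without a filter on dim probes (0.0584). In knockout the change was −1.91 ± 0.63 (adjusted p = 0.148), and passed when blocked by slide (adjusted p = 0.0205) or replicate (0.0200). Against untreated cells the 24 h level was higher in 6 of 6 cultures, by 0.65 to 1.62 in wild type and 1.59 to 2.15 in knockout. The mean changes were 1.24 ± 0.63 (adjusted p = 0.355) and 1.96 ± 0.63 (adjusted p = 0.18). The knockout change passed when blocked by slide (adjusted p = 0.0250) or replicate (0.0235).

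Egr3, which overlaps with Egr2 in its DNA sites and in lymphocyte roles, rose as Egr2 did. Its log2 intensity in wild-type cultures 6, 8 and 9 was 8.53, 8.23 and 7.29 untreated, 12.14, 9.70 and 10.70 at 4 h, and 10.72, 9.49 and 9.40 at 24 h. Here it was culture 8 that had the lowest 4 h level. Values at 4 h and 24 h lay above the untreated ones and overlapped each other. In knockout cultures 3, 4 and 6 the values were 8.28, 7.88 and 6.79 untreated, with culture 6 just below the limit, 12.26, 11.30 and 12.03 at 4 h, and 10.14, 9.78 and 10.15 at 24 h. The knockout conditions did not overlap.

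At 4 h Egr3 rose 7.13-fold in wild type (log2 2.83 ± 0.54, adjusted p = 0.0169) and 18.6-fold in knockout (log2 4.21 ± 0.54, adjusted p = 0.00104). Within cultures the log2 rises were 3.61, 1.47 and 3.41 in wild type and 3.98, 3.41 and 5.24 in knockout. The wild-type call was lost without culture 6 (adjusted p = 0.0552), 8 (0.233) or 9 (0.0562), and the knockout call was kept in each alternative run. All Egr3 values come from 1 of 2 probes. The second was at 75.1% to 99.4% of the limit on all 18 arrays, correlated with the first by r = 0.415 over them, and its stretch of the transcript is not given in the tables used here.

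Egr3 was still higher at 24 h than before stimulation in 6 of 6 cultures. The change was 1.85 ± 0.54 in wild type (adjusted p = 0.116) and 2.37 ± 0.54 in knockout (adjusted p = 0.0753). Both passed when blocked by slide (adjusted p = 0.0187 and 0.00924) or replicate (0.0234 and 0.0111), and the knockout change also with median scaling (0.0392) or without wild-type culture 6 (0.0339). Between 4 h and 24 h it changed by −0.98 ± 0.54 in wild type (adjusted p = 0.276) and by −1.84 ± 0.54 in knockout (adjusted p = 0.113), and the knockout change passed when blocked by slide (adjusted p = 0.0196) or replicate (0.0235). The 4 h level thus came first in order, then 24 h, then untreated, for Egr2 and Egr3 in both genotypes, and in wild type neither the step from 4 h to 24 h for Egr3 nor that from 24 h to untreated for Egr2 passed the test with or without a block.

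**Figure D2:**
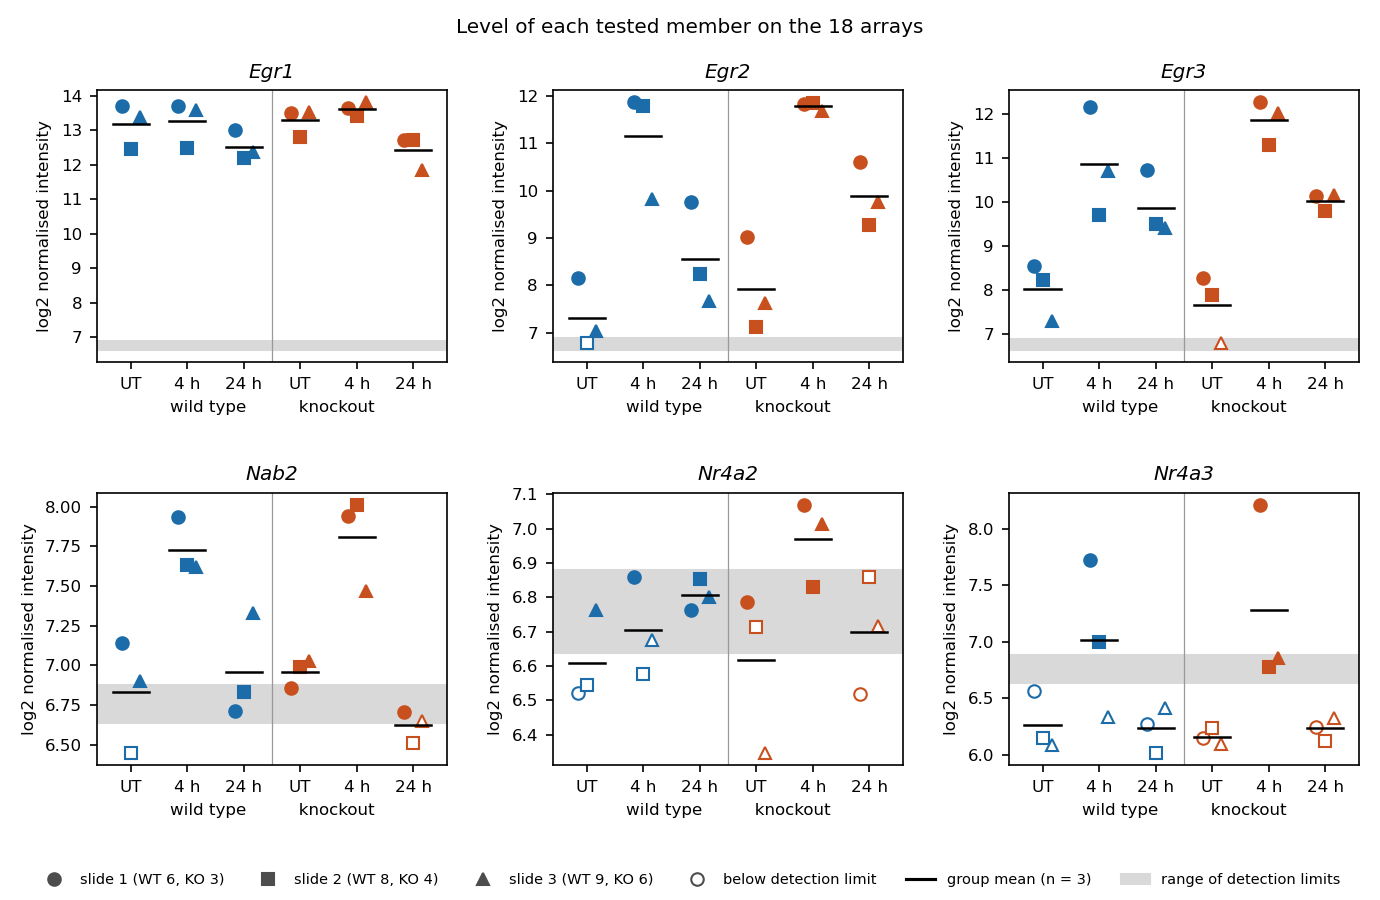
Normalised log2 intensity of the 6 tested members on 18 arrays, with 3 arrays per group, the group mean as a line, symbols by slide, open symbols below the detection limit and the range of the limits shaded. Egr2 and Egr3 are highest at 4 h and in between at 24 h, Egr1 is near its highest level in untreated cells, and Nr4a2 and most Nr4a3 values lie at or below the limit.

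The short sequences at the Egr2 start sites are shown for the motifs in them. Serum response factor and CREB, the factors best known to start EGR transcription, bind these motifs. RefSeq promoter windows (GRCm38.p6) were searched over the 250 bases before each start on both strands. The motifs were the CArG box of serum response factor, the CREB core TGACG and its full palindrome TGACGTCA (which holds 2 overlapping cores, 1 on each strand), the EGR site GCGNGGGCG and the NR4A site AAAGGTCA. Windows were found for 5 of the 7 members, 9 in all, and not for Egr1 and Egr3. A CArG box lay in 1.47% of all 32851 windows, the core in 17.8%, the palindrome in 1.55%, the EGR site in 4.70% and the NR4A site in 1.34%. Capitals mark the motif letters below, and a match in this window describes its letters only. The Nr4a3 site and all Egr2 windows lie downstream of the gene's outermost start in RefSeq's gene table of that build and may overlap exons of other transcripts.
Egr2, chr10:67537797-67537818, plus strand, CArG box and core 72 to 51 bases before a start: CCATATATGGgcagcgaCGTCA
Egr2, chr10:67537494-67537503, plus strand, CArG box 72 to 63 bases before another start: CCTTTTTTGG
Nr4a3, chr4:48045092-48045104, plus strand, both cores 213 to 201 bases before its start: CGTCAcatTGACG

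Of the 5 Egr2 windows, which overlap in part, 4 held a CArG box and 3 of these also 2 cores. These 3 windows share the same CArG box and the same 2 cores, so the only Egr2 CArG boxes are those printed above. The Nr4a3 window held 4 cores, of which the 2 nearest each other are printed. Windows of Nr4a1 and Nr4a2 also held 4 cores each and 1 EGR site. The 250 bases before the Nr4a2 start and those before the Nab2 start are printed whole. They are examples of a window with cores and an EGR site and of a window with none of the 5 motifs. The part of any motif in the members' responses was not tested.
Nr4a2, chr2:57124004-57124253, minus strand, cores and EGR site in capitals: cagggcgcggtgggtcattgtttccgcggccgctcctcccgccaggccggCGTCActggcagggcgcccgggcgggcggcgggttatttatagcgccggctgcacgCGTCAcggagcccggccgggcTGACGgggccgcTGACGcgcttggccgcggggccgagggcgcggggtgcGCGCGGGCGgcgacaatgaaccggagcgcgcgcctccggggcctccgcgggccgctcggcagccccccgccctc
Nab2, chr10:127666704-127666953, minus strand, no match: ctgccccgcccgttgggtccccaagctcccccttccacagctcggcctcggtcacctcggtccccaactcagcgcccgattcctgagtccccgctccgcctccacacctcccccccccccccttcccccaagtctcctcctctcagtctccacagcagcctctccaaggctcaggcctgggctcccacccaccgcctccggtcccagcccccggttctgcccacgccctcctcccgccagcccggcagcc

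Nab2, the corepressor, rose at 4 h and was back near its untreated level at 24 h. Its log2 intensity in wild-type cultures 6, 8 and 9 was 7.14, 6.45 and 6.90 untreated, 7.93, 7.63 and 7.62 at 4 h, and 6.71, 6.83 and 7.33 at 24 h. The 4 h values lay above the others. Knockout cultures 3, 4 and 6 gave 6.86, 6.99 and 7.03 untreated, 7.94, 8.01 and 7.47 at 4 h, and 6.71, 6.51 and 6.65 at 24 h, again with the 4 h values on top. Deposited signals at 4 h were 139% to 225% of the limit, so that Nab2 was a dim probe throughout.

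In wild type the 4 h rise of Nab2 was 1.87-fold (log2 0.90 ± 0.20, adjusted p = 0.0368). It was not past the threshold without wild-type culture 6 (adjusted p = 0.107) or 8 (0.659), without knockout culture 3 (0.0606) or 4 (0.0775), or with median scaling (0.103). In knockout the change was of like size, 0.85 ± 0.20 (adjusted p = 0.0631), and passed when blocked by slide (adjusted p = 0.0268) or replicate (0.0325), and without wild-type culture 9 (0.0474). After its 4 h level Nab2 fell to 24 h by 0.77 on the log2 scale in wild type (± 0.20, adjusted p = 0.0392) and by 1.18 in knockout (± 0.20, adjusted p = 0.0193). The wild-type call was lost without any 1 of wild-type cultures 6 and 8 and knockout cultures 3, 4 and 6 (adjusted p = 0.0505 to 0.309), with median scaling (0.190) and without a filter (0.0581). In knockout it was lost without culture 3, 4 or 6 (adjusted p = 0.166, 0.319 and 0.0811) and with median scaling (0.0898). At 24 h against untreated the changes were 0.13 ± 0.20 and −0.34 ± 0.20, neither past the threshold with or without a block.

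Nr4a3 was seen above the limit at 4 h alone. Its log2 intensity in wild-type cultures 6, 8 and 9 was 6.56, 6.14 and 6.09 untreated, 7.72, 6.99 and 6.34 at 4 h, and 6.27, 6.02 and 6.41 at 24 h. In knockout cultures 3, 4 and 6 it was 6.15, 6.23 and 6.10 untreated, 8.21, 6.78 and 6.86 at 4 h, and 6.25, 6.12 and 6.33 at 24 h. At 4 h 2 of 3 wild-type and 3 of 3 knockout arrays were above the limit, with culture 9 as the exception, and the untreated and 24 h arrays were all below it. Neither 4 h change passed the test, at 0.75 ± 0.34 in wild type (adjusted p = 0.231) and 1.12 ± 0.34 in knockout (adjusted p = 0.117). As the untreated arrays give only a bound, the 4 h mean was also set against the higher of the limit and the probe's own level. That gave 1.25-fold in wild type and at least 1.46-fold in knockout, with no test. The wild-type 4 h mean includes culture 9, itself below the limit, so its 1.25-fold is no lower bound. The knockout change passed when blocked by slide (adjusted p = 0.0356) and not when blocked by replicate (0.0545). As the probe was kept only through its 4 h arrays, these tests and fold values are descriptions only. Slide 1 had the highest 4 h value in each genotype. The other 2 Nr4a3 probes stayed at 55.1% to 87.0% of the limit and correlated with the first by r = 0.822 and 0.732 over 18 arrays.

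Nr4a2 stayed near the limit in all conditions. Over the 18 arrays its deposited signal was 80.5% to 112% of the limit. Its log2 intensity in wild-type cultures 6, 8 and 9 was 6.52, 6.54 and 6.76 untreated, 6.86, 6.58 and 6.67 at 4 h, and 6.76, 6.85 and 6.80 at 24 h. In knockout cultures 3, 4 and 6 it was 6.79, 6.71 and 6.35 untreated, 7.07, 6.83 and 7.01 at 4 h, and 6.52, 6.86 and 6.72 at 24 h. The knockout 4 h values lay just above the untreated ones, with a change of 0.35 ± 0.15 (adjusted p = 0.232), and the wild-type ones overlapped them, with 0.09 ± 0.15 (adjusted p = 0.766). A change in a signal at this level rests partly on values below the limit.

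**Figure D3:**
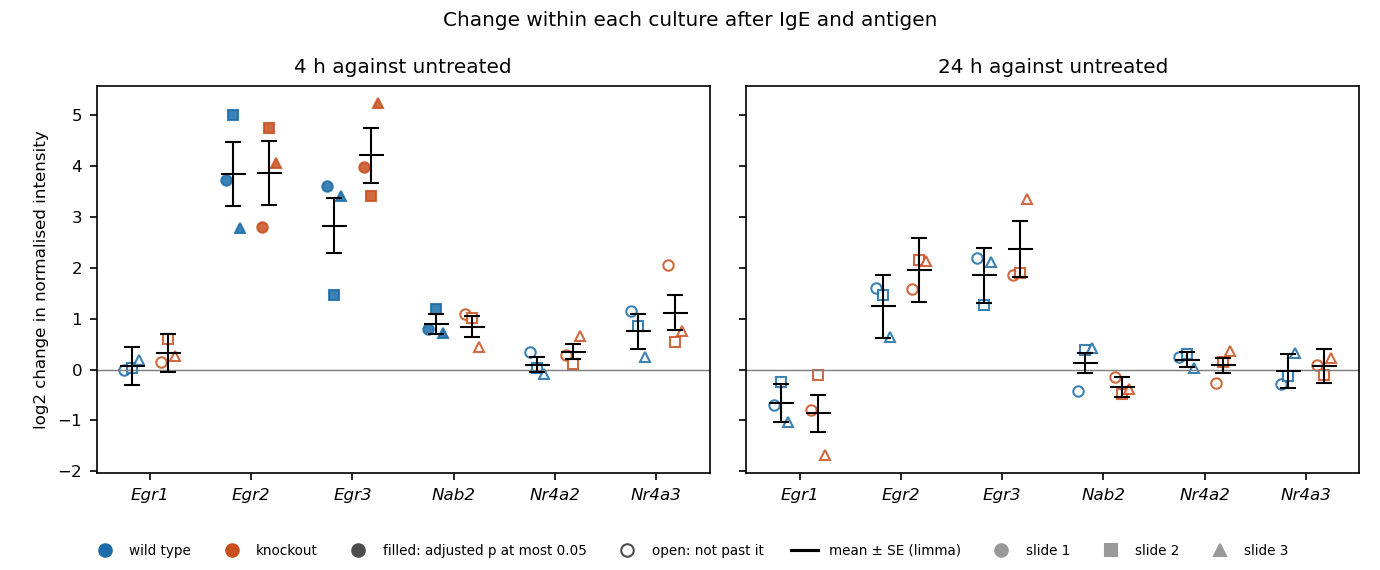
Log2 change against untreated at 4 h (left) and 24 h (right) for the 6 tested members, with each culture as a symbol by slide, the limma mean and SE (3 arrays per group) in black, and filled symbols where the adjusted p is at most 0.05. At 4 h Egr2 and Egr3 rise in every culture of both genotypes, and at 24 h their changes are smaller and none is past the threshold.

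After 24 h, 0 of 6 tested members passed the test against untreated cells in either genotype, where 0.69% of all genes passed in wild type and 0.245% in knockout. At an unadjusted p under 0.05 there were 1 in wild type (Egr3) and 3 in knockout (Egr1, Egr2 and Egr3), against 15.7% and 13.7% of all genes. With the slide or the replicate as a block, 1 member in wild type (Egr3) and 2 in knockout (Egr2 and Egr3) were called, where 5.24% and 3.86% of all genes passed when blocked by slide and 4.65% and 3.08% when blocked by replicate. The members' median change was 0.16 in wild type and 0.08 in knockout, beside all-gene medians of −0.02 and −0.001. Between 4 h and 24 h, Egr2 and Nab2 fell in wild type and Nab2 in knockout, beside 5.46% and 0.69% of all genes called and 2.40% and 0.434% called lower. With either block 2 members were called in wild type, as without, where 8.79% (slide) and 8.18% (replicate) of all genes were called lower. In knockout, 5 were called when blocked by slide and 4 by replicate, all lower, where 3.87% and 3.32% of all genes were called lower. The 5 include Nr4a3. At 4 h in knockout, the slide block called 4 members, Nr4a3 among them, and the replicate block 3, where 3.17% and 2.68% of all genes were called higher. At 4 h in wild type both called 3, where the shares were 4.62% and 4.13%. Groups at 24 h lay wholly above untreated for 2 members in each genotype (Egr3 and Nr4a2 in wild type, Egr2 and Egr3 in knockout), against 10.5% and 8.49% of all genes, and wholly below for 2 in knockout (Egr1 and Nab2), against 9.53%. They lay wholly below the 4 h values for 2 members in wild type and 5 in knockout, against 13.5% and 10.4% of all genes. Their 4 h to 24 h medians were −0.78 in wild type and −1.19 in knockout, against 0.003 and 0.02 over all genes. Nr4a3, which was tested only because of its 4 h signals, is in these medians and among the 5 wholly lower in knockout, so that such counts and medians are descriptions only. The 3 comparisons of a genotype share arrays.

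Knockout and wild-type cells were then compared in each condition. Of the 6 tested members, 0 differed in untreated cells, at 4 h or at 24 h, where 0.267%, 0.189% and 0.278% of all genes passed. At an unadjusted p under 0.05 the count was also 0 in each, and it was 0 when slides were blocked, where 0.501%, 0.423% and 0.568% of all genes passed, and when replicates were, where 0.256%, 0.234% and 0.334% did. Between genotypes the replicate block took arrays of 1 culture as correlated and did not remove a culture's level. Differences ran from −0.37 to 0.61 in untreated cells, from 0.08 to 1.01 at 4 h and from −0.34 to 1.32 at 24 h, as log2 of knockout over wild type. Nab2 at 24 h was the only member whose groups did not overlap, with knockout lower, where 6.46% of all genes were wholly lower.

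The widest differences were of Egr3 at 4 h and Egr2 at 24 h. Egr3 at 4 h was higher in knockout by 1.01 ± 0.54 (adjusted p = 0.980, 95% interval −0.14 to 2.17), with 0.12, 1.59 and 1.33 on slides 1, 2 and 3. Egr2 at 24 h was higher in knockout by 1.32 ± 0.63 (adjusted p = 0.996, interval −0.004 to 2.65), with 0.85, 1.02 and 2.10 on the slides. The difference of Egr2 at 4 h, 0.64 ± 0.63 (adjusted p = 0.980), lay on slide 3, at −0.03, 0.07 and 1.86, and was −0.036 when the culture 9 wild-type array at 4 h was left out. In untreated cells Egr2 differed by 0.61 ± 0.63 and Egr3 by −0.37 ± 0.54 (adjusted p = 0.995 for each). These intervals reach a 6.29-fold difference for Egr2 at 24 h and a 4.49-fold one for Egr3 at 4 h, so that 3 cultures per genotype leave room for differences of that size.

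Whether the 2 genotypes responded to different degrees was tested directly. At 4 h and at 24 h 0 of 6 tested members and 0% of all genes passed, and at an unadjusted p under 0.05 it was 0 members at both times, against 1.06% and 1.78% of all genes. The 4 h response of Egr3 was larger in knockout by 1.38 ± 0.77 (adjusted p = 0.9999, interval −0.25 to 3.01), with 0.37, 1.94 and 1.83 on the 3 slides. For Egr2 the response difference was 0.03 ± 0.88 at 4 h (interval −1.85 to 1.91) and 0.72 ± 0.88 at 24 h (interval −1.16 to 2.60). Egr3 at 24 h gave 0.52 ± 0.77 (interval −1.11 to 2.15).

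**Figure D4:**
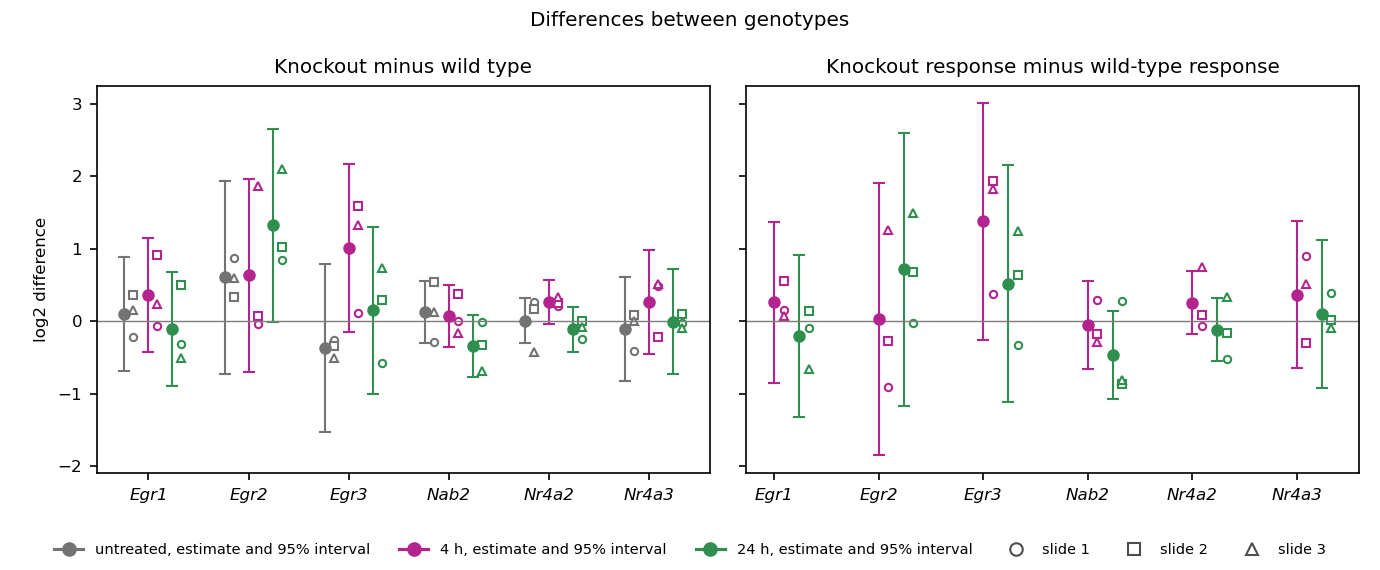
Differences between genotypes in log2 units for the 6 tested members, as knockout minus wild type in each condition (left) and as knockout response minus wild-type response (right), with limma estimates, 95% intervals and the value on each slide as open symbols. Every interval includes 0, and those of Egr2 and Egr3 are the widest.

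Patterns over the 18 arrays were compared by Pearson correlation of log2 levels, where arrays share cultures, slides and conditions, so that the values describe likeness only. Among members, Egr2 and Egr3 were most alike (r = 0.864), then Nab2 and Nr4a3 (r = 0.785) and Egr2 and Nr4a3 (r = 0.714). Egr1 followed Nab2 most (r = 0.532) and Egr3 little (r = 0.189). Of all other genes, the chemokine Ccl4 was nearest to Egr2 (r = 0.961), ahead of Synpo and Hemk1 (0.954 and 0.946). Egr3 was nearest to the chemokine Ccl2 (r = 0.923), then Lbh (0.915) and the cytokine Tnf (0.898). Nab2 was nearest to Dot1l (r = 0.920), a histone H3 methyltransferase, and Nr4a3 to the chemokine Ccl12, the stress factor Atf3 and the growth factor Hbegf (r = 0.939, 0.938 and 0.937). Egr1 was nearest to lysozyme Lyz1 (r = 0.843) and the AP-1 subunit Junb (r = 0.832). Lyz1 is one of the 4 macrophage markers whose summed level was lower after stimulation, and of which 0 passed the test. For Nr4a2 the highest correlation was 0.718, with Itgb1bp1. After each culture's mean was taken off, these leading values were 0.974 for Ccl4, 0.952 for Ccl2, 0.960 for Dot1l, 0.948 for Ccl12, 0.859 for Lyz1, 0.916 for Junb and 0.732 for Itgb1bp1.

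Among 34 tested immediate early genes of other families, 1 rose in wild type at 4 h and 2 rose in knockout, and 0 fell. Over all genes 0.89% and 0.634% were called higher. Nfkbid, an atypical inhibitor of NF-kB, rose in both (log2 1.72 ± 0.33, adjusted p = 0.0159, and 2.08 ± 0.33, adjusted p = 0.00463). Dusp2, a nuclear MAP kinase phosphatase, rose in knockout (2.92 ± 0.58, adjusted p = 0.0282). The list's median change was 0.35 and 0.56, with 22 and 29 of 34 genes positive, against all-gene medians of −0.04 and −0.02. Blocked by slide, the counts called were 10 and 13, and by replicate 10 and 12. For 24 h against untreated they were 4 (slide) and 3 (replicate) in wild type and 3 and 1 in knockout, and for 24 h against 4 h 17 and 18 in wild type and 13 and 12 in knockout. Of all 8985 genes, the slide and replicate blocks called 873 and 769 at 4 h in wild type and 499 and 415 in knockout. At 24 h against untreated they called 471 and 418 in wild type and 347 and 277 in knockout. From 4 h to 24 h they called 1690 and 1606 in wild type and 645 and 574 in knockout. At 24 h against untreated, Zfp36l1, an mRNA decay factor, and the antiproliferative gene Btg1 fell in wild type by 1.26 and 1.07 on the log2 scale (± 0.20 and 0.22, adjusted p = 0.0196 and 0.0381), and 0 genes passed in knockout. There the largest changes were of Phlda1 and the phosphatase Dusp4 (1.48 and 1.37, adjusted p = 0.319 and 0.320). Over all genes 0.69% passed at 24 h in wild type and 0.245% in knockout. Between 4 h and 24 h, 6 fell in wild type, led by Csrnp1, Nfkbid, the AP-1 subunit Fosl2 and Btg1 (−1.93, −1.26, −1.17 and −0.98), and Nfkbid in knockout (−1.97). The list medians were then −0.69 and −0.63, and 31 and 33 of 34 genes were negative, against all-gene medians of 0.003 and 0.02. Over all genes 2.4% and 0.434% were called lower. Between genotypes 0 of 34 passed in any condition. Dusp2 at 4 h had the largest difference, 2.48 as log2 of knockout over wild type (adjusted p = 0.164), which passed when blocked by slide (0.0130) and not by replicate (0.107).

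Of 26 tested genes described as EGR or NR4A targets, 6 rose in wild type and 7 in knockout at 4 h, and 0 fell. The shares of all genes called higher were 0.89% and 0.634%. The largest changes were of the chemokines Ccl1, at least 52.8-fold higher in wild type (adjusted p of the fitted change = 0.00552), and Ccl3 (6.12 ± 0.70 in wild type, adjusted p = 0.000868, and 6.15 ± 0.70 in knockout, adjusted p = 0.000404). In knockout the growth factor Csf2 was at least 26.4-fold higher (adjusted p of the fitted change = 0.0282). Such a bound is given where the untreated arrays of that genotype were all below the limit. That these genes were tested may thus rest on their stimulated signals, and their place among the 6 and the 7 is a description only. The medians were 0.29 and 0.44, with 17 and 20 of 26 positive, against all-gene medians of −0.04 and −0.02. At 24 h Ccl3 was still higher in wild type (4.13 ± 0.70), and Ccl1 and Ccl3 in knockout (4.70 ± 0.86 and 4.67 ± 0.70). By 24 h Il13, Ccl4 and the stress gene Gadd45b had fallen from 4 h in wild type (−2.36, −2.21 and −1.69), and 0 genes passed in knockout. With the slide as a block, 10 and 10 genes were called at 4 h, 4 and 5 at 24 h, and 9 and 3 from 4 h to 24 h, in wild type and knockout in that order. With the replicate as a block the counts were 9 and 10, 5 and 5, and 8 and 4. Of all 8985 genes, the slide block called 873 and 499 at 4 h, 471 and 347 at 24 h, and 1690 and 645 from 4 h to 24 h. The replicate block called 769 and 415, 418 and 277, and 1606 and 574. The all-gene shares for the later comparisons without a block are those given with the immediate early list. Between genotypes 0 of 26 passed in any condition. Many genes on this list respond to other factors as well, and binding was not measured.

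Of 9 tested partners and corepressors, 0 passed at 4 h or 24 h against untreated in either genotype, with medians of −0.12 to 0.08. Chd4, a chromatin remodeller that binds NAB proteins, changed by 0.56 (adjusted p = 0.154) in wild type and 0.87 (adjusted p = 0.0631) in knockout at 4 h, and fell from 4 h to 24 h in knockout by 1.01 on the log2 scale (± 0.21, adjusted p = 0.0417). With either block 1 of the 9 was called at 4 h in each genotype. Of all 8985 genes, 873 (slide) and 769 (replicate) were called in wild type, and 499 and 415 in knockout. The wild-type call was Rxrb, an RXR partner of nuclear receptors, at −0.63 (adjusted p = 0.0268 by slide and 0.0419 by replicate). The knockout call was Chd4 (0.0233 and 0.0331). From 4 h to 24 h in wild type the slide block called Chd4 (0.0489) and the replicate block 0 genes. Of 13 tested upstream factors, 0 passed at 4 h. The CREB coactivator Crtc3 fell at 24 h in knockout by 0.97 on the log2 scale (± 0.19, adjusted p = 0.0497), and was −0.58 in wild type (adjusted p = 0.162). In wild type at 24 h the slide block called Crtc3 (0.0340) and the replicate block Crtc1 (0.0291), a second CREB coactivator. The slide block alone called Crtc3 at 4 h in knockout (−0.57, adjusted p = 0.0356) and Hdac5, a class IIa histone deacetylase, from 4 h to 24 h in wild type (0.90, adjusted p = 0.0473). The list's medians at 4 h were −0.16 in wild type and −0.05 in knockout. The other all-gene shares and counts are those given with the immediate early list. Single calls in lists of 9 and 13 genes describe those genes only. For both lists 0 genes passed between genotypes.

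**Figure D5:**
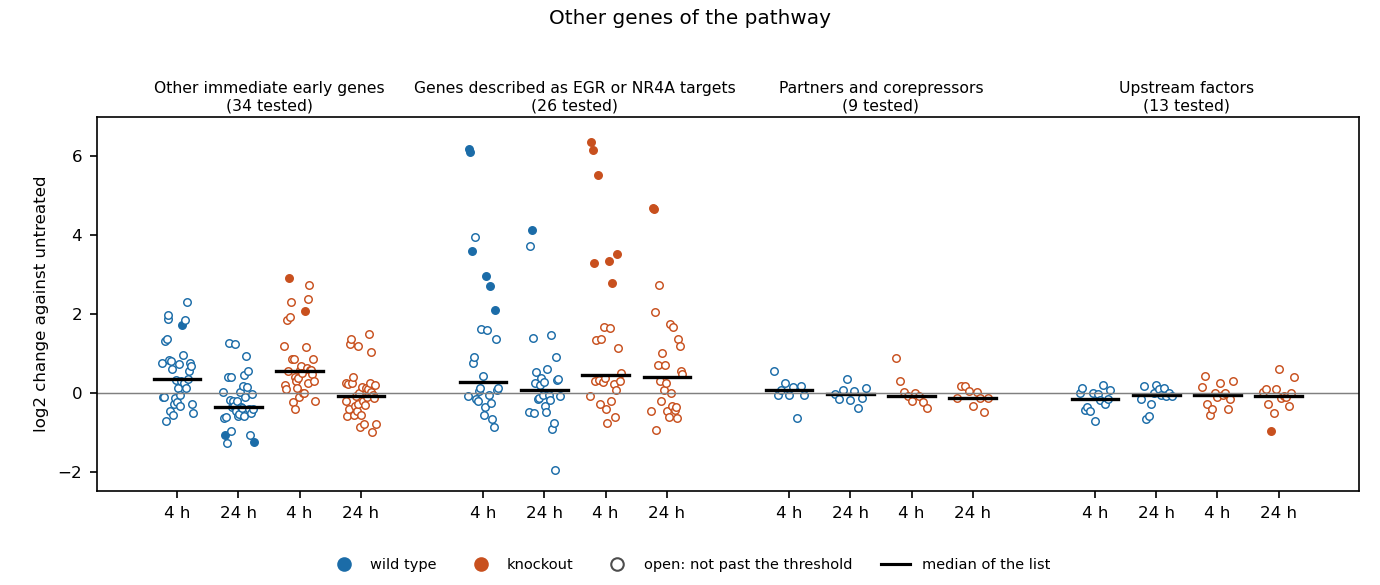
Log2 change against untreated at 4 h and 24 h in wild type (blue) and knockout (orange) for the tested genes of 4 lists, 1 point per gene, filled where the adjusted p is at most 0.05, with the list median as a line. The largest changes are those of target-list chemokines at 4 h, and the partner list's medians are −0.12 to 0.08.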

How the data were processed

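Total RNA was measured on 18 arrays, and per the labels' protocols biotinylated cRNA was made with an Ambion kit for Illumina arrays. The authors deposited intensity per probe on a linear scale without normalisation, and a table of log2 values, which differed by at most 0.000556 from the quantile normalised log2 of the first. No source used here names the scanner software or the normalising tool.

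Intensities were corrected by normexp (offset 50), put on the log2 scale and quantile normalised in R 4.3.3 with limma 3.58.1. No detection p-values were in the tables, so a probe was detected where at most a share of 0.01 of 1504 receptor probes was as bright, and kept when detected on 3 arrays. Of 45281 probes 16669 were kept and gave 8985 genes, each by its brightest probe. Symbols came from the platform annotation, where 34885 probes had 1 symbol, 18 several and 10378 none, and all 10 member probes matched the RefSeq gene table.

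All 18 arrays were fitted by lmFit and eBayes with 6 group means, two-sided, Benjamini-Hochberg adjusted over all genes, with the step tested on simulated data. The members, the lists, their tests and the rule for named genes (the members, up to 4 called genes per list and comparison or else the 2 largest changes, and the 3 most alike genes per member) were chosen with earlier results of these data known. Culture numbers come from the labels, some of which name the mouse, and the deviations of arrays of 1 culture correlated with 0.134 to 0.625 (median 0.361, 18 of 18 pairs over 0.1), against a median of 0.328 for the other genotype on the same slide and −0.172 on other slides. The main fit takes them as independent. No 2 arrays were copies (highest correlation 0.989). The number of arrays limits the precision. The p-values of the main fit measure the spread between arrays of a group, in which culture and slide cannot be told apart. They do not measure how far the change within a culture differed between cultures. Alternatives were no background correction, median scaling, the authors' values, no filter, every kept probe, slide and replicate blocks, and each culture left out, and, chosen after seeing the data, 2 single arrays left out.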

Additional observations from a re-analysis of the deposited data

How the results depend on the processing

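Between the settings that keep all arrays, 299 of 322 single-member values kept their direction and side of the threshold, 17 newly passed, 6 no longer passed and 0 changed direction. Median scaling called 0 members for 24 h against 4 h in wild type and in knockout and 1 (Egr3) for 24 h in knockout, and it moved the all-gene median by 0.13 at 4 h in wild type, 0.28 at 24 h in wild type, 0.14 at 24 h in knockout, 0.14 from 4 h to 24 h in wild type and −0.15 for the 24 h response difference, and by under 0.1 elsewhere. Without a filter 0 members were called for 24 h against 4 h in wild type. The slide block called 1, 2, 4 and 5 members for 24 h in wild type, 24 h in knockout, 4 h in knockout and 24 h against 4 h in knockout, and the replicate block 1, 2, 3 and 4. Neither block changed another member's call.

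With cultures or single arrays left out, members called ran from 0 to 3 at 4 h in wild type, 1 to 3 at 4 h in knockout, 0 to 0 and 0 to 1 at 24 h, and 0 to 3 and 0 to 1 for 24 h against 4 h, in wild type and knockout in that order, and were 0 for each comparison between genotypes. Changes near 0 changed sign, with ranges of −0.091 to 0.11 for Egr1 and −0.028 to 0.19 for Nr4a2 at 4 h in wild type, −0.023 to 0.40 for Nab2 and −0.21 to 0.10 for Nr4a3 at 24 h in wild type, and −0.062 to 0.26 for Nr4a2 and −0.0071 to 0.16 for Nr4a3 at 24 h in knockout. Knockout minus wild type did so for Egr3 untreated (−0.73 to 0.064), Egr2 at 4 h (−0.036 to 0.99) and Egr3 at 24 h (−0.081 to 0.58), as did the 4 h response difference of Egr2 (−0.64 to 0.62).

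Genes called among all tested differed more. At 4 h in wild type there were 164, against 46 with median scaling, 110 without a filter, 873 and 769 with the slide and replicate blocks, and 1 to 966 with arrays left out. At 4 h in knockout 73 became 37 without a filter, 499 and 415 with the blocks and 16 to 251 with arrays left out. For 24 h in wild type 62 became 19 with median scaling and 471 and 418 with the blocks, and for 24 h in knockout 22 became 11 with the authors' values and 347 and 277 with the blocks. From 4 h to 24 h, 491 in wild type became 44, 1690 and 1606, and 62 in knockout became 4, 645 and 574, under median scaling and the 2 blocks. With arrays left out they ran from 1 to 85 and 3 to 24 for 24 h, and from 1 to 1413 and 0 to 251 from 4 h to 24 h, in wild type and knockout in that order. Signal over background limits Nab2, Nr4a2 and Nr4a3, whose signals lay at or little above the limit. It also bears on the 4 h rises of Egr2 and Egr3, whose untreated signals were 99.45% to 318% and 99.75% to 268% of the limit. Over the settings that keep all arrays, the rise of Egr2 ran from 3.51 to 4.04 in wild type and 3.63 to 4.10 in knockout. That of Egr3 ran from 2.64 to 3.05 and 3.93 to 4.37.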
